A study of Mus musculus with 4 samples.

Results

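A set of 9 genes of the fibroblast growth factor (FGF) and ERK pathway was examined in mouse embryonic stem cells after knockdown of the endogenous retrovirus MERVL. The set held the ligand Fgf4, the receptors Fgfr1 and Fgfr2, the feedback inhibitors Dusp6, Spry2, Spry4 and Spred1, and the ETS transcription factors Etv4 and Etv5. They were chosen by gene symbol from the table of estimated counts, and all 9 of 9 were found among its 43496 genes. All 9 also passed the filter on low counts, as did 15735 genes in all. The libraries came from E14 cells, a pluripotent line of strain 12910la grown on gelatin in medium with 15% fetal bovine serum and 10 ng/ml LIF. The MERVL shRNA group, labelled MERVL knocked down, had 2 libraries from cells given 1000 ng of a pSuper puro plasmid that makes an shRNA against MERVL. The random shRNA group, labelled wild type, had 2 libraries from cells given the same plasmid with a random shRNA. Both groups received puromycin at 1 µg/ml from 24 h after transfection for 4 days, and the labels name no clones. Whether the replicates were separate cultures is not stated in the labels; the p-values therefore reflect the spread among these 4 libraries, which may be technical.

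FGF4 is secreted by embryonic stem cells and binds FGF receptors together with heparan sulfate on the same cells. The bound receptor acts through adaptors, RAS, RAF and MEK to phosphorylate ERK, a signal that readies these cells to leave naive pluripotency and, in the blastocyst, steers cells to primitive endoderm. ERK activity raises the transcription of its own inhibitors (the Sprouty and Spred proteins and the phosphatase DUSP6) and of the ETS factors ETV4 and ETV5. The level of these RNAs is therefore widely used as a readout of ERK activity, although it is not a measurement of ERK itself.

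The libraries held 16067854 and 14570056 estimated counts with MERVL shRNA, against 15496921 and 11628887 with random shRNA. Summed over its 2277 genomic copies, the targeted element had 1163 and 574 CPM (counts scaled to library size) with MERVL shRNA, against 4662 and 1434 CPM with random shRNA. Zscan4c, a marker of the 2-cell-like state, had 101 and 53.7 CPM with MERVL shRNA, against 438 and 124 CPM with random shRNA. The random shRNA libraries stood further apart from each other than the MERVL shRNA libraries did, with Pearson's r across features of 0.989 within MERVL shRNA and 0.963 within random shRNA. All 8 of 8 embryonic stem cell markers were detected and summed to 8674 to 9423 CPM with MERVL shRNA, against 7413 to 8507 CPM with random shRNA. Of these, 5 lay above both random shRNA libraries in both MERVL shRNA libraries and 1 below, where 23.0% and 21.8% of all genes did so. Of 8 feeder or fibroblast markers, 4 had counts, while Col3a1, Dcn, Lum and Postn were at 0 in every library, and the list summed to 15.3 to 18.5 CPM with MERVL shRNA, against 30.9 to 41.4 CPM with random shRNA.

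No member passed the test in either direction. In the edgeR quasi-likelihood test, 0 of 9 members had an adjusted p under 0.05 with a higher level and 0 of 9 with a lower one, where 0.00636% of all tested genes were called higher and 0% lower. In all, 8 of the 9 log2 fold changes of MERVL shRNA over random shRNA were above 0, as were 7941 of 15735 tested genes. Etv4 at 0.05 and Spred1 at 0.03 were near 0. The median of the 9 was 0.32 against 0.00 for all genes. In 5 members both MERVL shRNA libraries lay above both random shRNA libraries, where 23.0% of all genes did so. Fgfr1 alone of the 9 lay below in both, where 21.8% of all genes did so. At an unadjusted p under 0.05, Fgf4, Dusp6 and Spry4 were higher, 3 of 9 members against 4.87% of all genes, and 0 of 9 were lower against 6.35% of all genes. With 2 libraries against 2, an exact permutation test of a single gene cannot give a p below 0.333. Zscan4c did not pass either, with a log2 fold change of -1.86 ± 0.59 (SE) and an adjusted p by edgeR of 0.329.

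**Figure D1:**
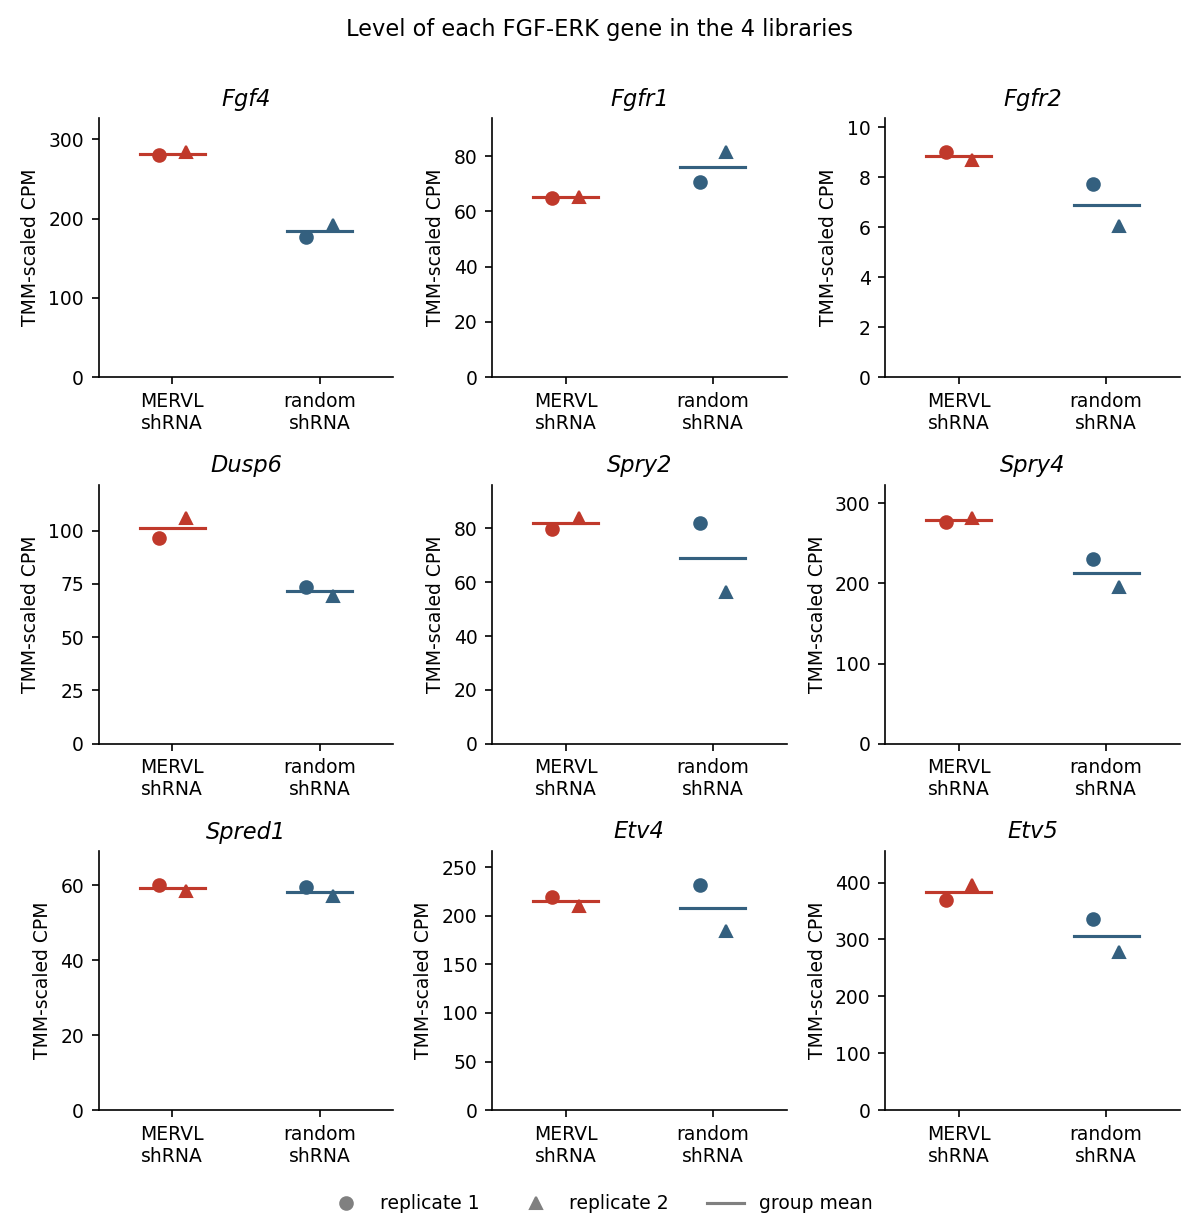
Level of each of the 9 FGF-ERK genes in CPM, a point for each library, MERVL shRNA left of random shRNA, with the group mean. Fgf4 had 280.0 and 284 CPM with MERVL shRNA, against 176 and 192 CPM with random shRNA, while the Spry2, Etv4 and Spred1 groups overlap.

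The ligand Fgf4 had the largest difference of the 9. Fgf4 (ENSMUSG00000050917, chr7:144847367-144865243, plus strand, GRCm38) had 280.0 and 284 CPM with MERVL shRNA, against 176 and 192 CPM with random shRNA. Both MERVL shRNA libraries were high and nearly equal, and the groups did not overlap. Means were 282 ± 2.86 CPM with MERVL shRNA and 184 ± 11.2 CPM with random shRNA (SD, n = 2 each), a fold of 1.53 with a 95% interval from 1.21 to 1.93. The log2 fold change was 0.61 ± 0.14 (SE), and the adjusted p by edgeR was 0.329, the 173rd smallest p among the tested genes. Fgf4 passed when a random shRNA library was left out, at 0.56 with an adjusted p by edgeR of 0.000510 without random shRNA replicate 1 and at 0.69 with an adjusted p of 1.64e-06 without random shRNA replicate 2. It did not pass without MERVL shRNA replicate 1 or 2, at 0.65 and 0.62. In the fits without a random shRNA library the spread comes from the MERVL shRNA pair alone, and the lone random shRNA library is assumed to vary likewise.

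Fgf4 was also the main FGF ligand RNA of these cells. In TPM, a level per library that corrects for gene length, Fgf4 made up 86.7% and 86.4% of the summed level of 18 FGF ligand genes with MERVL shRNA, against 68.8% and 77.3% with random shRNA, and these did not overlap. This share moves with the other ligands as well as with Fgf4. Fgf17 had 11.0 and 13.8 TPM with MERVL shRNA, against 37.2 and 18.3 TPM with random shRNA. Fgf1 had 5.48 and 4.21 TPM with MERVL shRNA, against 13.0 and 4.35 TPM with random shRNA. Both were highest in random shRNA replicate 1. The genes most alike to Fgf4 over the 4 libraries were Mgat3, Ginm1 and Ankrd35, at distances of 0.0392, 0.0407 and 0.0495. The distance is Euclidean on centred log2(CPM + 1), over 10179 genes compared, and 25 genes lay within 0.1 of Fgf4.

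The promoter windows of Fgf4, Dusp6 and Spred1 are shown because Fgf4 and Dusp6 had the largest differences and Spred1 the smallest. Each runs 250 bases up to the gene's start in RefSeq (GRCm38.p6), read 5′ to 3′ on the gene's strand: Fgf4 at chr7:144861136-144861385, Dusp6 at chr10:99262981-99263230 and Spred1 at chr2:117120821-117121070. The RefSeq starts of Fgf4 and Spred1 are not the GENCODE gene starts given with the values. Capitals mark GC boxes, the binding motif of SP1-family factors, as GGGCGG or its complement.
Fgf4: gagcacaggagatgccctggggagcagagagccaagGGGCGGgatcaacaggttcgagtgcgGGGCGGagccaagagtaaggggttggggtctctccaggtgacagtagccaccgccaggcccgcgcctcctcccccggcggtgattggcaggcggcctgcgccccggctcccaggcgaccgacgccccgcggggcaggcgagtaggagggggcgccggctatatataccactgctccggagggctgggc
Dusp6: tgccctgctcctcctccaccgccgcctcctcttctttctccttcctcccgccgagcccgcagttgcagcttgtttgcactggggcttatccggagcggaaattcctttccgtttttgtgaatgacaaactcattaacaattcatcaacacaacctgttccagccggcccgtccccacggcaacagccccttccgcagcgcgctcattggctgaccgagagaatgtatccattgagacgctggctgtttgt
Spred1: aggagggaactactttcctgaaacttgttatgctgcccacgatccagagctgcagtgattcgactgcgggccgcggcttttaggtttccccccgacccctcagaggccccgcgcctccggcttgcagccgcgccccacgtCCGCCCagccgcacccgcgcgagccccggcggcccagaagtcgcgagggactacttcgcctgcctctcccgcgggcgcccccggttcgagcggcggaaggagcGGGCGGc
Fgf4 holds 2 GC boxes, at positions -214 to -209 and -188 to -183 from the start, and Spred1 holds 2, at -110 to -105 and -7 to -2, while Dusp6 holds 0. The GC box was found in 32.7% of 32851 RefSeq promoters of this length. Of 6 other motifs searched on both strands, none was found in these 3 windows. Their shares among all promoters were 12.0% for the ETS core CCGGAA, 6.75% for the AP-1 motif TGANTCA and 1.55% for the cyclic AMP element TGACGTCA. For factors of pluripotent cells they were 1.6% for the octamer ATGCAAAT, 16.5% for the SOX motif ACAAAG and 7.02% for the STAT motif TTCNNNGAA. No match says only that these letters are not in the window. The share of G and C was 71.2% in Fgf4, 56.4% in Dusp6 and 70.8% in Spred1, where the median promoter had 52.4%.

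Of the receptors, Fgfr1 was lower and Fgfr2 higher in both MERVL shRNA libraries, and neither passed. Fgfr1 (ENSMUSG00000031565, chr8:25513654-25575718, plus strand), the main FGF receptor gene here by level, had 64.9 and 65.3 CPM with MERVL shRNA, against 70.8 and 81.5 CPM with random shRNA. Both MERVL shRNA libraries were below both random shRNA libraries, and the random shRNA pair was the wider one. The log2 fold change was -0.22 ± 0.14 (SE) with an adjusted p by edgeR of 0.542. It was -0.32 without random shRNA replicate 1 and -0.10 without random shRNA replicate 2, and passed in neither fit. Fgfr1 shares 164 of its 9875 exonic bases with the antisense gene Gm16159, which averaged 13.4 estimated counts.

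Fgfr2, the other receptor examined (ENSMUSG00000030849, chr7:130162451-133123350, minus strand), had 9.02 and 8.68 CPM with MERVL shRNA, against 7.75 and 6.04 CPM with random shRNA. The groups did not overlap, and random shRNA replicate 2 was the lowest library. Its 95% counting interval ran from 4.72 to 7.60 CPM, and that of random shRNA replicate 1 from 6.41 to 9.22 CPM. Those of MERVL shRNA ran from 7.63 to 10.7 CPM in replicate 1 and from 7.19 to 10.3 CPM in replicate 2. The interval of random shRNA replicate 1 overlaps both of these, and that of random shRNA replicate 2 overlaps that of MERVL shRNA replicate 2. For Fgfr2 the log2 fold change was 0.36 ± 0.25 (SE) with an adjusted p by edgeR of 0.593. It was 0.56 without random shRNA replicate 1 and 0.21 without random shRNA replicate 2, and passed in neither fit. Fgfr2 shares 314 of 10328 exonic bases with Ctbp2 on the same strand, a gene with a mean of 3148 estimated counts, so its value may include reads of Ctbp2. Its estimated count was not whole in 3 libraries.

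**Figure D2:**
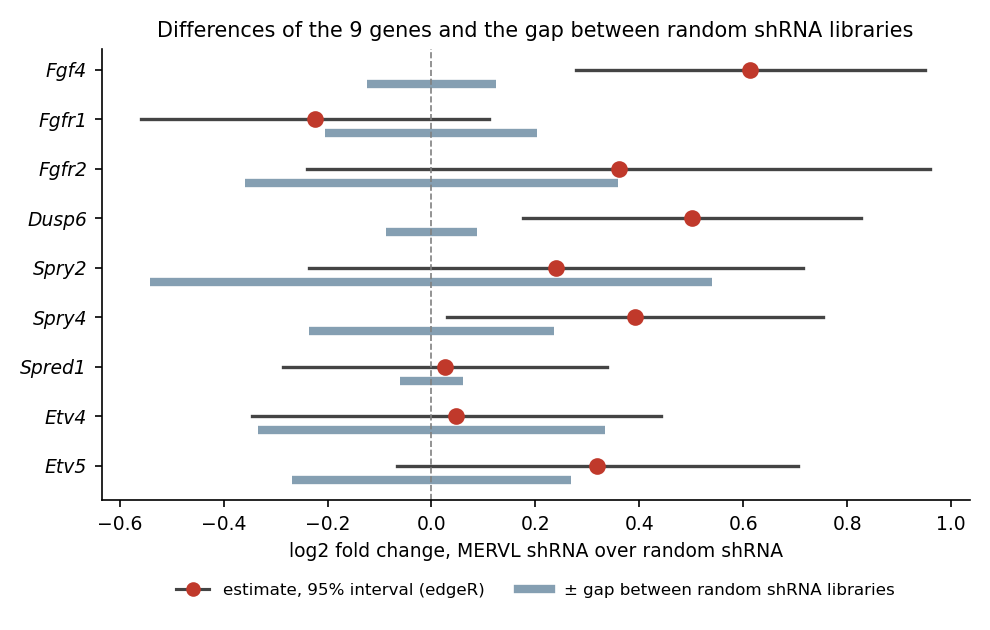
Log2 fold change of MERVL shRNA over random shRNA for each of the 9 genes, with the 95% interval. Blue bars show the size of the log2 gap between the random shRNA libraries on both sides of 0. The intervals, not adjusted for the number of genes, stay above 0 for Fgf4 (0.28 to 0.95), Dusp6 (0.18 to 0.83) and Spry4 (0.03 to 0.75).

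Among the feedback inhibitors, Dusp6 and Spry4 had higher levels in both MERVL shRNA libraries, while the groups overlapped for Spry2 and Spred1. Dusp6 (ENSMUSG00000019960, chr10:99263231-99267489, plus strand) encodes a phosphatase that removes the activating phosphates of ERK. It had 96.5 and 106 CPM with MERVL shRNA, against 73.6 and 69.3 CPM with random shRNA. The groups did not overlap, and each pair lay close together. Means were 101 ± 6.48 CPM with MERVL shRNA and 71.4 ± 3.04 CPM with random shRNA (SD, n = 2 each), a fold of 1.42 with a 95% interval from 1.13 to 1.77. The log2 fold change was 0.50 ± 0.13 (SE) with an adjusted p by edgeR of 0.329. It passed without random shRNA replicate 1, at 0.55 with an adjusted p by edgeR of 0.000375, and without random shRNA replicate 2, at 0.47 with an adjusted p of 0.000753. It did not pass without MERVL shRNA replicate 1, at 0.59 with an adjusted p by edgeR of 0.82, or without MERVL shRNA replicate 2, at 0.45 with an adjusted p of 1.00.

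Spry4 (ENSMUSG00000024427, chr18:38586247-38601415, minus strand), a Sprouty inhibitor of receptor signalling, had 277 and 281 CPM with MERVL shRNA, against 229.8 and 195 CPM with random shRNA. The MERVL shRNA pair was nearly equal and lay above both random shRNA libraries. Means were 279 ± 3.16 CPM with MERVL shRNA and 212 ± 24.5 CPM with random shRNA (SD, n = 2 each). The log2 fold change was 0.39 ± 0.15 (SE), a fold of 1.31, with an adjusted p by edgeR of 0.347. It passed without random shRNA replicate 1, at 0.52 with an adjusted p by edgeR of 0.00137, and did not without random shRNA replicate 2, at 0.29 with an adjusted p of 0.0650. The genes most alike to Spry4 over the 4 libraries were Tbc1d10b, Dact2 and Zscan22, at distances of 0.0181, 0.0280 and 0.0289, with 64 genes within 0.1. Among the 9 genes the closest pair was Spry4 and Etv5, at 0.0933, followed by Spry4 and Fgfr2, at 0.102.

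Spry2 (ENSMUSG00000022114, chr14:105891947-105896819, minus strand), a second Sprouty gene, had 79.9 and 83.7 CPM with MERVL shRNA, against 82.0 and 56.4 CPM with random shRNA. Random shRNA replicate 2 was low, and random shRNA replicate 1 lay between the MERVL shRNA libraries. The log2 fold change was 0.24 ± 0.20 (SE), adjusted p by edgeR 0.657. It was 0.54 and passed without random shRNA replicate 1, with an adjusted p by edgeR of 0.000482, and was 0.01 without random shRNA replicate 2. Spred1 (ENSMUSG00000027351, chr2:117121374-117182279, plus strand), which blocks RAF activation by RAS, had 60.1 and 58.5 CPM with MERVL shRNA, against 59.5 and 57.0 CPM with random shRNA. All 4 values lay close together, and the log2 fold change was 0.03 ± 0.13 (SE), adjusted p by edgeR 0.952, with a 95% interval from -0.29 to 0.34. With a single library left out it was 0.01 to 0.06. Summed, the 4 feedback inhibitors had 513 and 529 CPM with MERVL shRNA, against 445 and 378 CPM with random shRNA. Spry4 was the largest part of this sum, with 277 and 281 CPM with MERVL shRNA, against 229.8 and 195 CPM with random shRNA.

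**Figure D3:**
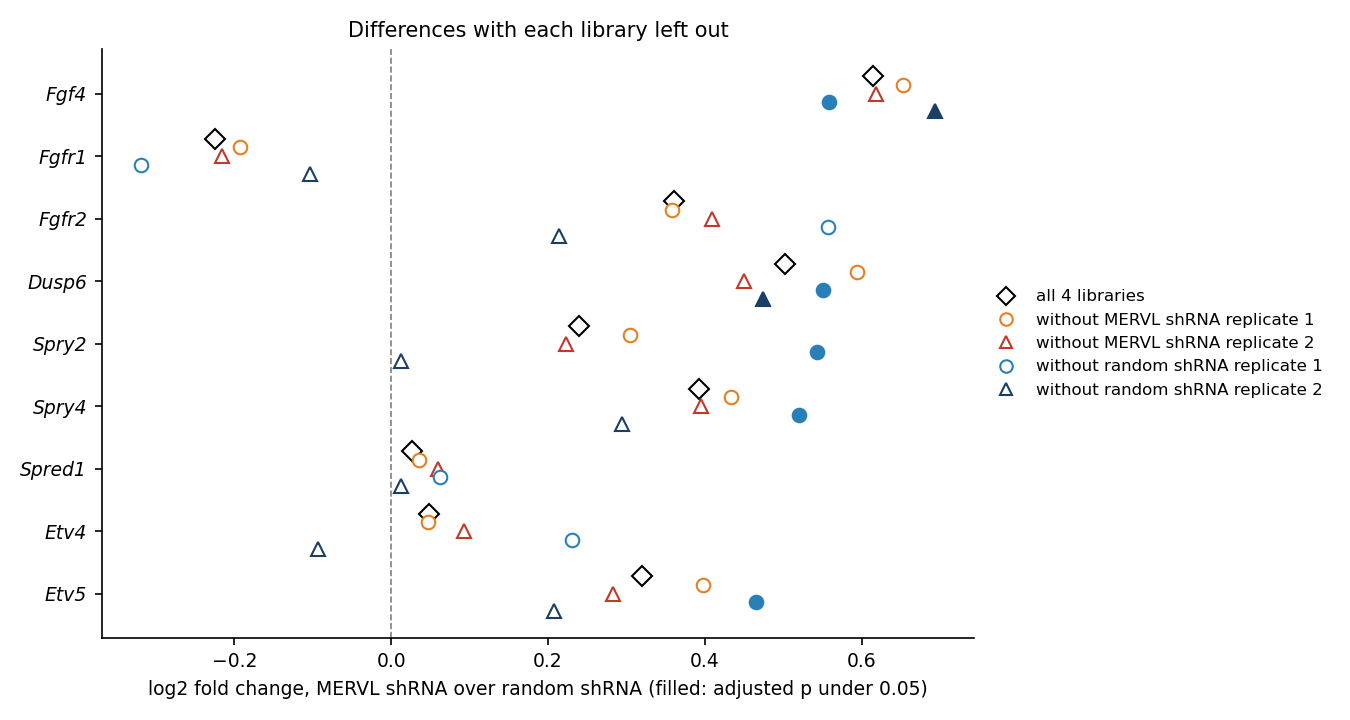
Log2 fold change of MERVL shRNA over random shRNA for each of the 9 genes with all 4 libraries and with each library left out, filled where the adjusted p was under 0.05. Fgf4 and Dusp6 stay near their value with all libraries, while Spry2 spans 0.01 to 0.54.

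Of the ETS factors, which are target genes of ERK signalling, neither passed with all 4 libraries. The groups overlapped for Etv4 but not for Etv5, and the difference between these genes was not tested. Etv5 (ENSMUSG00000013089, chr16:22381309-22439719, minus strand) had 369 and 396 CPM with MERVL shRNA, against 335 and 278 CPM with random shRNA. The groups did not overlap, and the log2 fold change was 0.32 ± 0.16 (SE), adjusted p by edgeR 0.444. Without random shRNA replicate 1 it was 0.47 and passed with an adjusted p by edgeR of 0.00687, and without random shRNA replicate 2 it was 0.21 and did not. Estimated counts were not whole in 4 libraries for Etv5 and in 3 for Etv4. Etv4 (ENSMUSG00000017724, chr11:101769742-101785371, minus strand) had 219 and 211 CPM with MERVL shRNA, against 232 and 184 CPM with random shRNA. The random shRNA libraries bracketed the MERVL shRNA libraries, and the log2 fold change was 0.05 ± 0.16 (SE), adjusted p by edgeR 0.928. Without random shRNA replicate 2 it was -0.09 and without random shRNA replicate 1 it was 0.23. Summed, both genes had 589 and 607 CPM with MERVL shRNA, against 567 and 462 CPM with random shRNA.

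Random shRNA replicate 2 was the lower random shRNA library for 7 of these 9 genes, by a log2 gap from 0.06 for Spred1 to 0.54 for Spry2. The share of all genes with this order was not counted. Summed, the 2-cell-like markers were higher in random shRNA replicate 1 than in any other library. The 9 of 10 2-cell-like markers in the table summed to 174 to 309 CPM with MERVL shRNA, against 417 to 1458 CPM with random shRNA. Primitive endoderm markers, all 9 of 9 detected, summed to 109 to 121 CPM with MERVL shRNA, against 95.2 to 105 CPM with random shRNA. Of these, 2 lay above both random shRNA libraries in both MERVL shRNA libraries and 1 below. Formative or primed epiblast markers, 7 of 7 detected, summed to 317 to 324 CPM with MERVL shRNA, against 295 to 378 CPM with random shRNA. In the same way, 1 of these lay above and 3 below, where 23.0% and 21.8% of all genes did so. The part of these marker differences in the values of the 9 genes was not tested, and in bulk RNA fewer cells of a type and less RNA per cell cannot be told apart. In all, 5 members (Fgf4, Dusp6, Spry2, Spry4 and Etv5) were called higher without random shRNA replicate 1, where 7.03% of all genes were. Without random shRNA replicate 2 it was 2 members, Fgf4 and Dusp6, where 15.6% of all genes were. Without a filter on low counts 1 member, Fgf4, was called higher, where 1.05% of all genes were, and in DESeq2 likewise 1, where 0.463% were, while limma-voom called 0. On the authors' deposited scores, limma called 6 members higher and 1 lower, where 13.7% and 14.1% of all genes were called. On those scores the random shRNA pair differs by far less than in the counts, with an SD of the log2 gap of 0.0374 on the scores and 0.388 on CPM.

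Per length, Etv5 had the highest mean level of the 9, with 204 and 219 TPM with MERVL shRNA and 214 and 163 TPM with random shRNA. Next by mean over the 4 libraries were Fgf4 at 172, Etv4 at 163, Spry4 at 123, Spry2 at 86.4, Dusp6 at 65.3, Spred1 at 20.7, Fgfr1 at 17.1 and Fgfr2 at 1.81 TPM. Of the 8 pairs of neighbours in this order, the ranges did not overlap between Etv4 and Spry4, Dusp6 and Spred1, and Fgfr1 and Fgfr2. Fgf4 was above Etv4 in 3 of 4 libraries, and the order held in all 4 for every other pair of neighbours. With the longest transcript as the length, Etv4 moved above Etv5 and Fgf4, and Fgfr1 above Spred1. Since TPM shifted the median gene by -0.14 on the log2 scale, group differences of the 9 genes are given on CPM or as ratios within a library. The TPM values of the ligands Fgf17 and Fgf1 above carry this shift. Fgf1 had 4.21 TPM in MERVL shRNA replicate 2 and 4.35 TPM in random shRNA replicate 2, but 10.1 and 9.90 CPM.

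Ratios between the 9 genes within a library were not tested and are given as values. They follow from the values of each gene and are no separate support. Fgf4 over Fgfr1, in TPM, was 13.3 and 13.4 with MERVL shRNA, against 7.70 and 7.29 with random shRNA, a mean ratio 1.79-fold higher. Fgfr1 over Fgfr2 was 7.53 and 7.87 with MERVL shRNA, against 9.55 and 14.1 with random shRNA, where Fgfr2 rests on few counts. The groups did not overlap in either ratio. Etv5 over Etv4 was 1.27 and 1.42 with MERVL shRNA, against 1.09 and 1.14 with random shRNA, and Dusp6 over Spred1 was 3.48 and 3.91 with MERVL shRNA, against 2.68 and 2.63 with random shRNA, again without overlap. Spry4 over Spry2 was 1.52 and 1.47 with MERVL shRNA, against 1.23 and 1.52 with random shRNA, and these overlapped. Fgfr1 made up 72.0% and 74.7% of the summed TPM of Fgfr1 to Fgfr4 with MERVL shRNA, against 73.0% and 76.4% with random shRNA, which also overlapped.

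**Figure D4:**
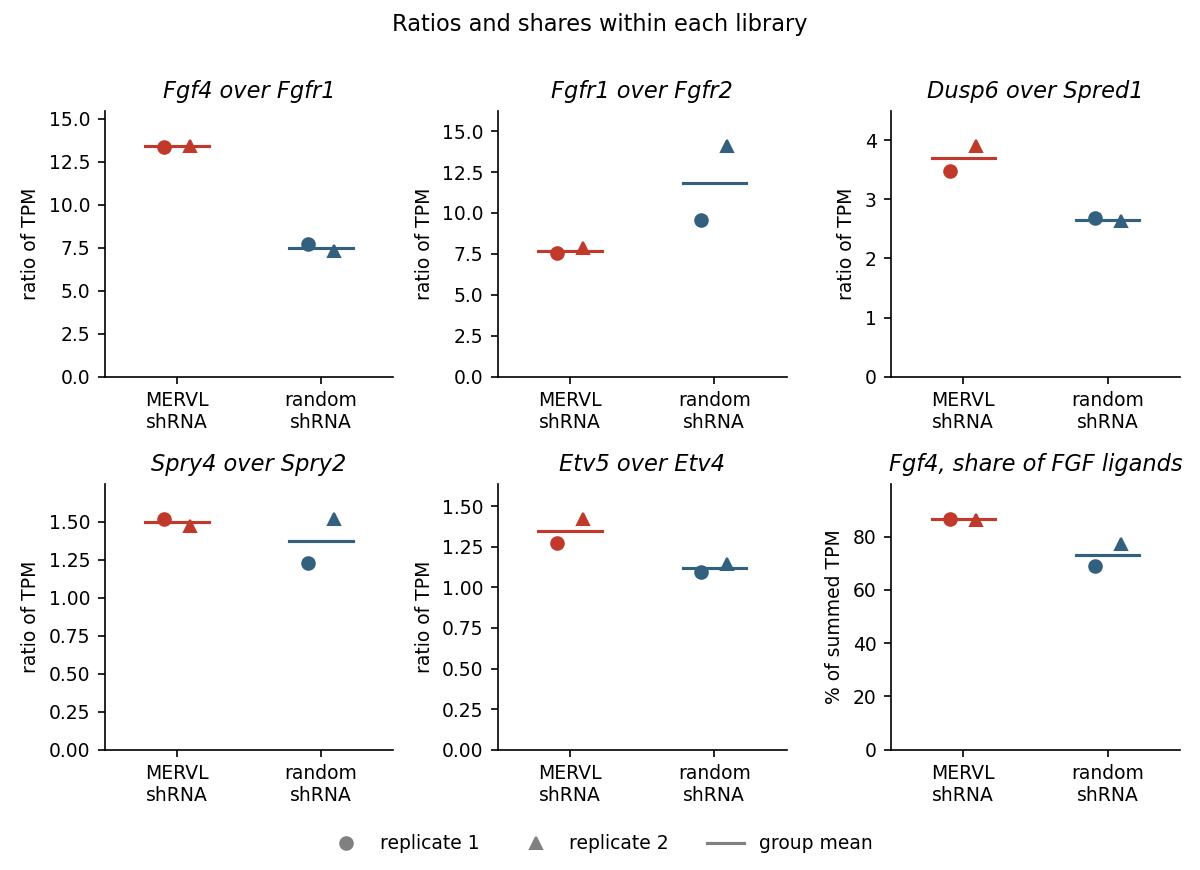
Ratios of TPM between pairs of the 9 genes, and Fgf4 as a percentage of the summed TPM of 18 FGF ligand genes, in each library with the group mean, MERVL shRNA left of random shRNA. Fgf4 over Fgfr1 is 13.3 and 13.4 with MERVL shRNA, against 7.70 and 7.29 with random shRNA. This ratio sets the gene with the largest log2 fold change of the 9 over the only gene with a negative one.

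Over the wider pathway the log2 fold changes centred near 0. Of 84 other pathway genes, 71 passed the filter, with 0 called higher and 0 called lower by edgeR, 37 log2 fold changes above 0 and 34 below, and a median of 0.02. Both MERVL shRNA libraries lay above both random shRNA libraries in 12 of the 71 and below in 15 of the 71. Among all genes 23.0% and 21.8% did so, and the share below was close to that of all genes. By list, the median ran from -0.40 over 4 receptors and co-receptors to 0.15 over 10 other MEK-ERK transcriptional outputs. Without random shRNA replicate 1, 8 were called higher and 6 lower by edgeR, where 7.03% and 7.32% of all genes were. Without random shRNA replicate 2, 4 were called higher and 17 lower, where 15.6% and 13.7% were. Without a filter 0 were called higher and 4 lower, where 1.05% and 1.81% were. On the authors' deposited scores limma called 9 higher and 13 lower, where 13.7% and 14.1% of all genes were.

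Among other ligands, Fgf17 had 8.17 and 10.3 CPM with MERVL shRNA, against 24.0 and 12.9 CPM with random shRNA, and its log2 fold change was -1.01 ± 0.32 (SE), adjusted p by edgeR 0.329. Fgf1 and Fgf15 had log2 fold changes of -0.67 and -0.62, and Fgf5, a marker of the primed epiblast, stayed below the filter. Fgf1 had 27.0 CPM in random shRNA replicate 1, above the other 3 libraries. Single libraries set much of these values: without random shRNA replicate 1, Fgf17 was at -0.48 and Fgf1 at 0.25, without random shRNA replicate 2 Fgf1 was at -1.19 and Fgf15 at -0.38, and without MERVL shRNA replicate 1 Fgf15 was at -0.38.

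Among other receptors, Fgfr3 had 1.01 and 1.28 CPM with MERVL shRNA, against 2.93 and 3.69 CPM with random shRNA. Its log2 fold change of -1.53 ± 0.40 (SE), adjusted p by edgeR 0.329, was the lowest of the wider list. This value rests on few estimated counts, 16 and 18 with MERVL shRNA, against 46 and 44 with random shRNA. Fgfrl1, a receptor without a kinase domain, had -0.71 ± 0.25, and Fgfr4 and the co-receptor Klb had -0.09 and 0.15. Among genes for heparan sulfate, the sulfotransferase gene Ndst2 had a log2 fold change of 0.65, the syndecan gene Sdc4 -0.64 and the epimerase gene Glce -0.32. Of the adaptors, Frs2 had -0.33, Frs3 0.30 and Grb2 -0.24, and in the kinase cascade Ksr1 had -0.54, Map2k2 -0.40 and Braf -0.20. Several of these rest on 1 random shRNA library. Leaving out random shRNA replicate 1 gave log2 fold changes of 0.34 for Ndst2, -1.001 for Sdc4, 0.18 for Frs3, -0.04 for Grb2, -0.13 for Ksr1 and -0.01 for Map2k2. Leaving out random shRNA replicate 2 gave 1.04 for Ndst2, -0.14 for Sdc4, -0.38 for Grb2, -0.84 for Ksr1 and -0.68 for Map2k2. Without MERVL shRNA replicate 2, it was 0.18 for Frs3 and -0.08 for Braf. Fgfr4 and Klb changed sign when a library was left out.

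Among paralogs of the feedback genes, Spry1 lay higher in both MERVL shRNA libraries without passing. Spry1 had 21.6 and 20.3 CPM with MERVL shRNA, against 15.6 and 16.3 CPM with random shRNA, with a log2 fold change of 0.40 ± 0.16 (SE). Log2 fold changes were 0.01 for Spred2, -0.35 for the phosphatase gene Dusp4, -0.62 for the phosphatase gene Dusp9 and -0.52 for Errfi1, an inhibitor of EGF receptors. With random shRNA replicate 1 left out these were -0.06 for Dusp4, -0.15 for Dusp9 and -0.20 for Errfi1, and without random shRNA replicate 2 they were -0.55 for Dusp4, -0.95 for Dusp9 and -0.76 for Errfi1. Spred2 changed sign when a library was left out. Etv1, another factor of the ETV4 and ETV5 family, had 21.5 and 21.4 CPM with MERVL shRNA, against 15.2 and 15.6 CPM with random shRNA, and a log2 fold change of 0.48 ± 0.16 (SE), adjusted p by edgeR 0.329. Ier3 had -0.93 ± 0.37 and Epha4 0.26, and without random shRNA replicate 2 Ier3 was at -0.37. At an unadjusted p under 0.05, 1 of the 71 tested genes of the wider list was higher (Etv1), where 4.87% of all genes were, and 4 were lower (Fgf17, Fgfr3, Fgfrl1 and Ier3), where 6.35% of all genes were. Neither share exceeded that of all genes.

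**Figure D5:**
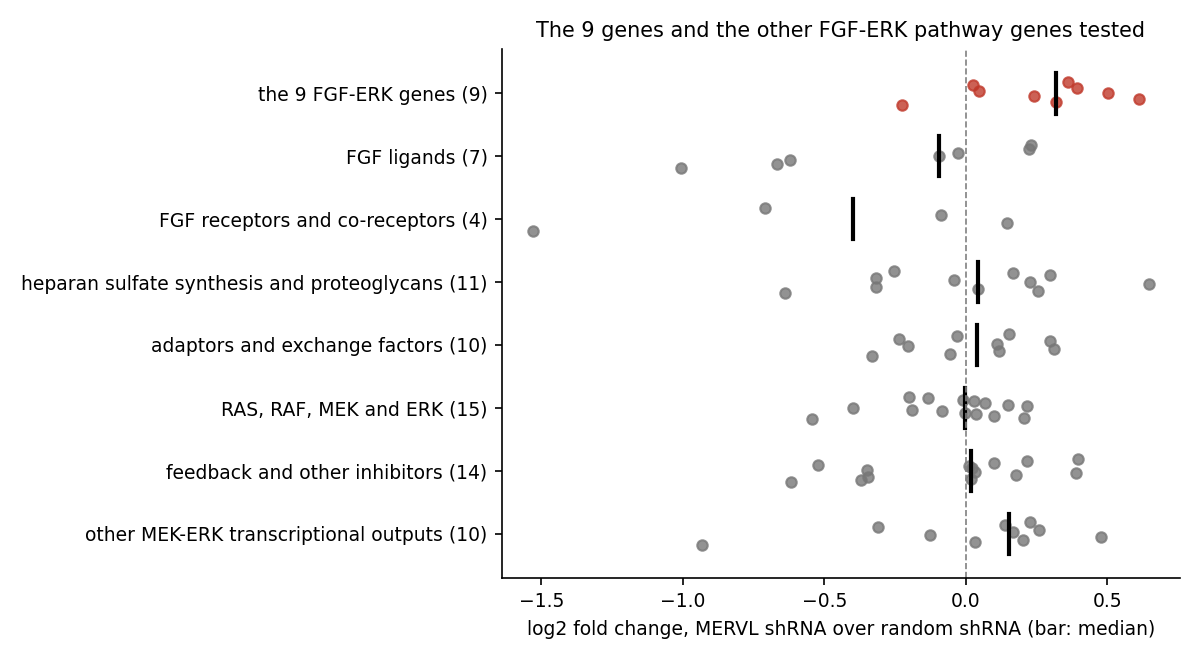
Log2 fold changes of MERVL shRNA over random shRNA for the 9 FGF-ERK genes and for the wider pathway by list, a point for each gene. The 9 genes have a median of 0.32, and the wider list a median of 0.02 with a range from -1.53 to 0.65.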

How the data were processed

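RNA was measured by mRNA sequencing in 4 libraries, 2 per group, with groups and replicate numbers taken from the titles. Reads were handled with Trim Galore and HISAT2 and the mm10 build (GRCm38), per the submitters' processing notes. The counting program, strand setting and tool versions were not given in the sources used here. The first deposited table gives what the authors call raw counts, here estimated counts since many are not whole, for 45773 features (43496 genes and 2277 MERVL copies). The other deposited table gives a normalized score per library, by a method not given in the sources used here. Estimated counts were rounded to whole numbers. All features were fitted together with the edgeR 4.0.16 quasi-likelihood test (R 4.3.3). Scaling was TMM, and filterByExpr kept 15735 genes and 618 copies. Tests were 2-sided, with Benjamini-Hochberg adjustment over all features and a threshold of 0.05. CPM values are TMM-scaled, and TPM used the union of GENCODE exons of GRCm38. Alternatives were other scalings, filters and priors, DESeq2 1.42.0, limma-voom (limma 3.58.1), limma on log2(score + 1), a replicate block and leaving out each library. Libraries held 11628887 to 16067854 estimated counts, and counting intervals cover counting error only. Named genes were all 9 members, up to 3 genes with the smallest p in each pathway list, close paralogs, Zscan4c and the summed MERVL copies, and the 3 genes most alike to Fgf4 and to Spry4. The members, lists and tests were chosen with earlier results of these data known.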

Additional observations from a re-analysis of the deposited data

How the results depend on the processing

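Fgf4, Fgfr2, Dusp6, Spry2, Spry4, Etv5 and Spred1 kept a positive log2 fold change in all 15 alternatives, and Fgfr1 kept a negative one. The values ran from 0.56 to 0.69 for Fgf4, 0.45 to 0.59 for Dusp6, 0.01 to 0.54 for Spry2 and 0.01 to 0.06 for Spred1. With 0 members called higher by edgeR, the count was 1 without a filter, 1 in DESeq2 and 6 on the scores, and leaving out a library gave 0 to 5. Members called lower numbered 1 on the scores. In the wider list, 9 genes were higher and 13 lower on the scores, 4 were lower without a filter, and leaving out a library gave 0 to 8 higher and 0 to 17 lower. These counts stand beside calls among all genes. On the scores 13.7% of all genes were called higher and 14.1% lower. Without a filter the shares were 1.05% and 1.81%, and in DESeq2 0.463% of all genes were called higher. Fits without a random shRNA library take their spread from the MERVL shRNA pair alone, and they called many genes outside the pathway too, with the shares given above. The mean filter on the scores removed no feature, so both filters on the scores gave the same counts. Leaving out a library reversed the sign of the log2 fold change of Etv4 (-0.0932 to 0.23), Fgf1 (-1.19 to 0.25), Fgfr4 (-0.24 to 0.0853), Klb (-0.0396 to 0.36) and Spred2 (-0.0597 to 0.11), and upper-quartile scaling that of Spred2 (-0.002). The cause was not tested. The replicate block, which the labels do not explain, called 0 members higher and 0 lower. Same-numbered libraries had deviations with a correlation of 0.25, and only 2 pairs exist, so the numbers are not taken to pair the libraries. At each gene's lowest estimated count over the 4 libraries, counting error was 11.8% of the level for Fgfr2 and 1.74% to 3.86% for the other members.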
